A study of Homo sapiens with 20 samples.

Results

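Accessible chromatin sites that were called under every vector and stayed narrow were described in the human liposarcoma line SW872, which is an established cell line. The sites were made by merging peaks that overlapped by 1 bp or more across 7 ATAC-seq peak lists, 1 list for each vector. A site was kept where it had a peak in all 7 lists and a merged width under 2000 bp. This gave 47211 constitutive sites out of 372133 merged sites, or 12.7% (exact 95% interval 12.6 to 12.8%), and out of 60372 sites with a peak in all 7 lists. The sites were thus chosen by the presence of a peak and the merged width, so the widths, areas and summit values below are a description and no test was run on them.

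The 20 libraries came from SW872 cells stably transduced with 1 of 7 retroviral vectors. These were the empty vector (EV), the mutants TAZ4SA and YAP5SA, the full-length C-terminal partners CAMTA1 and TFE3, and the gene fusions, TAZ-CAMTA1 and YAP-TFE3. In the labels the last vector is named Yap5SA-TFE3. All lines, the EV line included, carried the same retroviral backbone and were pooled lines from drug selection, and the replicates were separate transductions. Each vector had 3 libraries of 50000 cells except TFE3, which had 2, and EV replicate 3 carries the word redo in its title. Each list was deposited as 1 set of peaks per vector and held no value per library. No value below therefore has a replicate error, the depth behind each list is unknown, and the construct cannot be told apart from any other difference between the lists.

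In ATAC-seq a transposase cuts DNA that nucleosomes or other proteins leave exposed, and stretches with many cuts are called as peaks. Sites that stay open whatever factor is expressed typically include promoters of genes used by every cell and places bound by architectural proteins. TAZ and YAP are transcriptional coactivators of the Hippo pathway that reach DNA through TEAD factors, and the serine-to-alanine mutants escape the phosphorylation that keeps them out of the nucleus. CAMTA1 and TFE3 are transcription factors with DNA-binding domains of their own. The study set the fusions against these proteins to ask what each part brings to the chromatin landscape. The constitutive sites are the narrower part of what all 7 lists hold in common, without the 13161 shared sites of 2000 bp or more. An annotation or genome of the same build was not used here, so the sites are given by their hg19 position, counted from 1, and neither genes nor sequences are named.

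The constitutive sites were a minor share of each list by number and a larger share by signal in the longer lists. They held 24.3% of the peaks of the TAZ-CAMTA1 list (exact 95% interval 24.1 to 24.4%), 26.1% of those of YAP-TFE3 (25.9 to 26.2%) and 28.4% of those of CAMTA1 (28.2 to 28.6%). The share was 29.9% in the YAP5SA list (29.7 to 30.1%), 39.6% in EV (39.4 to 39.9%), 41.7% in TFE3 (41.5 to 42.0%) and 43.4% in TAZ4SA (43.1 to 43.6%). These intervals cover counting error only. By the area under the curve of the peak caller's statistic, which the authors deposited as the signal of a peak, the 7 shares ran only from 35.8% in EV to 40.3% in TFE3. The 13161 sites of 2000 bp or more in all 7 lists held more of the area, from 49.9% in TAZ-CAMTA1 to 59.1% in EV. For the constitutive sites the share by number thus ranged widely across lists while the share by area did not. By the rule every list has a peak at each site, and its peaks there ran only from 57449 in TAZ-CAMTA1 to 69055 in YAP5SA. The share by number thus depends on the length of the lists, which ran from 152702 to 236893 peaks. Every list was also cut, by area, to the size of the shortest, which left 43693 constitutive sites. The range of the share was then narrower, from 32.2% in TAZ-CAMTA1 to 40.7% in TAZ4SA, with the same lists at its ends. The source of the remaining range was not tested.

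The merged width of the constitutive sites had a median of 1010 bp, with quartiles of 653 and 1419 bp and a smallest value of 100 bp. Sites in exactly 6 lists, of which there were 24605, had a median merged width of 522 bp. The bases that a single list covered within a constitutive site were fewer than its merged width. The median covered width was 366 bp in the TAZ4SA list, 510 bp in EV, 597 bp in TFE3, 635 bp in YAP5SA, 782 bp in CAMTA1, 790 bp in YAP-TFE3 and 846 bp in TAZ-CAMTA1. As a median share of the merged site, TAZ4SA peaks covered 43.3% and TAZ-CAMTA1 peaks 91.1%. TAZ4SA was the narrowest list at 27767 sites (58.8%) and EV at 10217 (21.6%). TAZ-CAMTA1 was the widest at 19232 sites (40.7%) and YAP-TFE3 at 10803 (22.9%). At most constitutive sites 1 of the fusion lists thus covered the most bases.

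The area of a site in a list was the sum over the list's peaks in it. Its median was 298 in TAZ4SA, 483 in EV, 632 in TFE3, 887 in YAP5SA, 1328 in CAMTA1, 1465 in TAZ-CAMTA1 and 1529 in YAP-TFE3. The summit −log10 p, a value of the caller for the highest point of a peak, was taken from the largest peak of each list in a site. Its medians had the same ends, at 5.94 in TAZ4SA and 9.17 in YAP-TFE3. In between they were 6.33 in EV, 6.48 in TFE3, 7.69 in YAP5SA, 8.61 in CAMTA1 and 8.73 in TAZ-CAMTA1. YAP-TFE3 had the highest area of the 7 lists at 41.9% of the sites and TAZ-CAMTA1 at 31.3%. TAZ4SA had the lowest at 61.2% and EV at 22.7%. The quartiles of neighbouring lists overlapped throughout, and these areas are not scaled between lists.

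**Figure D1:**
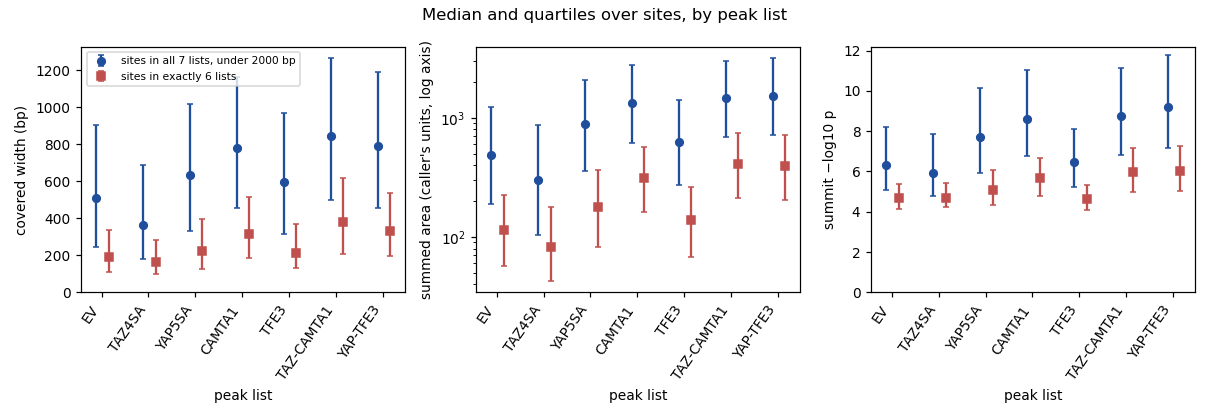
Median (points) and quartiles (bars) over sites of the covered width in bp, the summed area on a log axis and the summit −log10 p, for each of the 7 peak lists. Sites in all 7 lists and under 2000 bp (circles) lie above sites in exactly 6 lists (squares) in every list and for each of the 3 measures, and TAZ4SA is the lowest list for the former.

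Sites in exactly 6 lists show what lay just outside the requirement of a peak in every list. Their median area ranged from 83.1 in TAZ4SA to 414 in TAZ-CAMTA1, below the medians of the constitutive sites in the same lists. Of the 6-list sites, 8791 had a TAZ4SA peak, against 20079 with an EV peak and 22645 or more with a peak of each other list. Leaving TAZ4SA out of the requirement raised the number of constitutive sites from 47211 to 63121. Leaving out any other list instead gave 48289 to 52102 sites, so the TAZ4SA list limited the set more than any other.

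To compare lists of unequal length, each site was also given its percentile, the share of the peaks of the list with a smaller area than the site's largest peak in it. The median percentile was 70.5 in TAZ4SA, 74.3 in TFE3, 75.7 in EV, 81.7 in YAP5SA, 82.6 in CAMTA1 and 83.4 in each fusion list. The percentile by summit −log10 p gave nearly the same medians, from 70.1 in TAZ4SA to 83.7 in TAZ-CAMTA1. Constitutive sites therefore ranked above the middle of every list at the median. The lists held 152702 peaks in TAZ4SA, 156421 in TFE3, 171102 in EV, 223651 in CAMTA1, 230886 in YAP5SA, 235795 in YAP-TFE3 and 236893 in TAZ-CAMTA1. The median percentile followed this order apart from CAMTA1 and YAP5SA, and the part of list length in it was not tested.

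Most constitutive sites were not strong everywhere. In 14599 sites (30.9%) the percentile was at least 75 in all 7 lists, and in 3773 (7.99%) it was at least 90 in all. In 7968 sites (16.9%) at least 1 list placed the site under its 25th percentile, and in 4820 of these (10.2% of all) another list placed it at or above its 75th. The range of the percentile over the 7 lists had a median of 23.9 points, with quartiles of 11.1 and 44.2. It was under 10 points in 10622 sites (22.5%) and at least 50 points in 9202 (19.5%). These percentiles come from lists of unequal length, whose part in the ranges was not tested.

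The rank was higher and its range smaller at wider sites. In the 2456 sites under 300 bp the median percentile ran from 46.8 in TAZ4SA to 65.8 in YAP-TFE3, and the median range over lists was 41.5 points. In the 9817 sites of 1500 to 2000 bp it ran from 87.3 in TAZ4SA to 92.5 in TAZ-CAMTA1 and YAP-TFE3, and the median range was 8.78 points. Wider sites can hold more area by construction.

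The strongest constitutive sites, by the lowest of their 7 percentiles, lay on chromosomes 2, 5, 11 and 7. The first was chr2:739657-741379, with an area of 13740 in EV, 14600 in TAZ4SA, 16690 in YAP5SA, 19990 in CAMTA1, 10050 in TFE3, 17530 in TAZ-CAMTA1 and 19160 in YAP-TFE3. CAMTA1 was the highest list there and TFE3 the lowest in deposited area, and every percentile was at least 99.5. The second, chr5:79946269-79948047, had areas of 20810 in EV, 26630 in TAZ4SA, 24040 in YAP5SA, 21290 in CAMTA1, 11500 in TFE3, 18160 in TAZ-CAMTA1 and 18170 in YAP-TFE3. Here TAZ4SA was the highest list and TFE3 the lowest, and the summits of the 7 lists lay within 1 bp. Next, chr11:10530684-10531820, had areas from 11370 in TFE3 to 24950 in TAZ4SA and the same summit base in all 7 lists. The fourth, chr11:51589812-51591427, ran from 9844 in TFE3 to 25270 in TAZ4SA, and the fifth, chr7:87504968-87506760, from 8533 in TFE3 to 17730 in YAP-TFE3. The order of the lists at these 5 sites depended on the scaling between lists described below. With this scaling TAZ4SA was the highest list and a fusion the lowest at each of them. Whether the reads at these 5 sites map only to these positions was not tested.

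The order with TAZ4SA highest and TFE3 lowest in deposited area was rare. It held in 385 of the 47211 sites (0.815%), a group that was picked after its values were seen. Of the 385 sites, 40 lay on chromosome Y or on sequence not placed on a chromosome. Whether the reads of the 385 sites map only to these positions was not tested. Among the 7 sites whose first and last base were the same in every list, 6 had this order. These included chrY:4212772-4212942 and chrY:8979455-8979620. Another of the 6 was chr17:37570109-37570208, which was 1 of 2 constitutive sites with the smallest width, 100 bp. Its area was 637 in EV, 857 in TAZ4SA, 745 in YAP5SA, 652 in CAMTA1, 307 in TFE3, 490 in TAZ-CAMTA1 and 594 in YAP-TFE3. The summit −log10 p there was 13.5 in TAZ4SA and 6.76 in TFE3, and the TAZ4SA summit was the highest of the 7.

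At the other end, the weakest site by its highest percentile was chr6:147021177-147021461. Its area was 42.3 in EV, 24.2 in TAZ4SA, 50.4 in YAP5SA, 54.3 in CAMTA1, 39.95 in TFE3, 21.5 in TAZ-CAMTA1 and 31.8 in YAP-TFE3. No percentile there was above 27.8, and no base was covered by all 7 lists. The next weakest were chr13:98928850-98929137 and chr7:102321155-102321644, with highest percentiles of 28.8 and 36.2. Only 61 constitutive sites (0.129%) lay below the 50th percentile in every list.

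The steadiest sites of middle rank, among 4885 with a median percentile from 40 to 60, were chr8:17722164-17722285, chr5:6592843-6593064 and chr3:28957593-28958074. Their percentiles varied over the 7 lists by 12.4, 13.5 and 13.8 points. The area of the first ran from 136 in YAP5SA to 355 in TAZ-CAMTA1, and that of the third from 96.7 in YAP5SA to 225 in YAP-TFE3.

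The 7 lists ordered the constitutive sites in related ways. Over the 47211 sites, Spearman's rho of the percentiles by area was highest for CAMTA1 with TFE3, at 0.920, TAZ-CAMTA1 with TFE3, at 0.911, and YAP-TFE3 with TFE3, at 0.901. The fusions had a rho of 0.888 with each other. By covered width in place of area, the fusions with each other had the highest rho of the 21 pairs, at 0.897, followed by CAMTA1 with TFE3, at 0.892. By area the EV list was nearest to TAZ-CAMTA1, at 0.863, and to TFE3, at 0.859. By covered width this order turned, at 0.8366 for TAZ-CAMTA1 and 0.8445 for TFE3. By area TAZ4SA was nearest to YAP5SA, at 0.796, and farthest from TAZ-CAMTA1, at 0.597, which was the lowest of the 21 pairs. YAP5SA was nearest to CAMTA1, at 0.799, with TAZ4SA close behind. The lists share the cell line and the peak caller, and sites are not replicates, so these values are a description with no p.

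**Figure D2:**
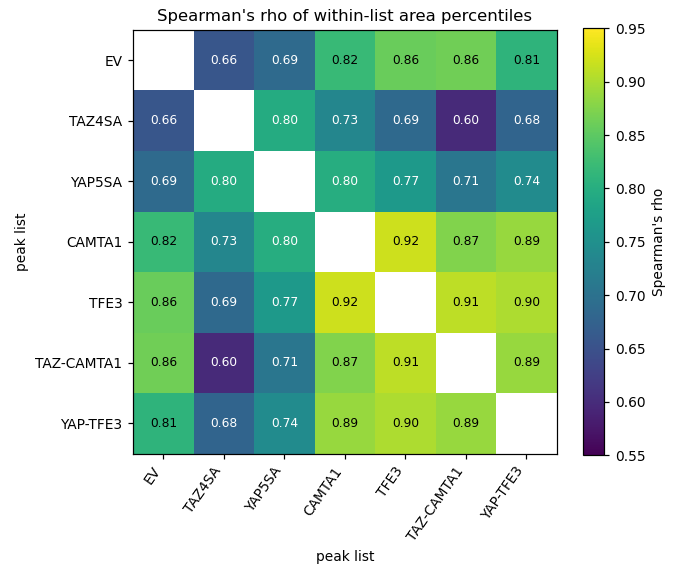
Spearman's rho of the within-list area percentile over the 47211 constitutive sites for each pair of the 7 peak lists. The values among CAMTA1, TFE3, TAZ-CAMTA1 and YAP-TFE3 lie between 0.875 and 0.920, while those of TAZ4SA lie between 0.597 and 0.796.

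Areas of 2 lists were next compared site by site after subtraction of the median log2 ratio over all sites with a peak in both lists. This median differed from 0 by more than 0.1 in 10 of the 11 comparisons. Against EV it was -0.59 for TAZ4SA, 0.12 for TFE3, 0.39 for YAP5SA, 1.04 for CAMTA1, 1.31 for YAP-TFE3 and 1.36 for TAZ-CAMTA1, and the changes below are relative to it. A site was counted as higher or lower where its scaled area differed by more than 2-fold, and each count is set beside the share of all sites of both lists past the same fold.

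With scaling, most constitutive sites stayed within 2-fold of EV under each vector. In the TAZ-CAMTA1 list 8447 sites (17.9%) were higher than in EV, against 20% of all sites in both lists, and 2807 (5.95%) were lower, against 11.8%. In the YAP-TFE3 list 10560 (22.4%) were higher, against 21.3%, and 3520 (7.46%) were lower, against 13.7%. The CAMTA1 list had 11194 (23.7%) higher, against 20.9%, and 3171 (6.72%) lower, against 13.5%. In these 3 lists the share of higher sites was near that of all sites, which include the constitutive sites, and the share of lower sites was smaller. The TFE3 list had 8380 (17.8%) higher, against 16.9%, and 3760 (7.96%) lower, against 10.6%.

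With scaling, the mutants differed from EV at more of the sites than the other vectors did. The YAP5SA list had 12868 sites (27.3%) higher, against 23.6% of all sites, and 5634 (11.9%) lower, against 14.9%. The TAZ4SA list had 10087 (21.4%) higher, against 20.6%, and 11579 (24.5%) lower, against 20.8%. This order of higher and lower turned for TAZ4SA at sites under 1000 bp, with 27.1% higher and 25.8% lower. It also turned at sites with exactly 1 peak of each list, with 25.7% higher and 20.5% lower. Of the constitutive sites, 54.1% stayed within 2-fold of EV in the TAZ4SA list and 60.8% in the YAP5SA list, compared with 69.6% in CAMTA1, 70.2% in YAP-TFE3, 74.3% in TFE3 and 76.2% in TAZ-CAMTA1. All of these comparisons share the EV list.

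Both the ranking of the vectors and the split between higher and lower depended on the scaling. Without it, 73.0% of the sites were past 2-fold of EV in YAP-TFE3, 72.3% in TAZ-CAMTA1 and 61.4% in CAMTA1, compared with 52.2% in TAZ4SA, 43.5% in YAP5SA and 27.3% in TFE3. In TAZ-CAMTA1 71.3% of the sites were then higher and 1.00% lower than in EV, with 71.5% higher and 1.498% lower in YAP-TFE3. The unscaled shares were 60.01 and 1.35% for CAMTA1, 35.9 and 7.57% for YAP5SA, 20.5 and 6.77% for TFE3, and 13.4 and 38.8% for TAZ4SA. Over all sites in both lists the median log2 ratio to EV was itself past 2-fold in YAP-TFE3, TAZ-CAMTA1 and CAMTA1, at 1.31, 1.36 and 1.04. Unscaled shares past 2-fold were not computed over all sites. The unscaled shares here and below are therefore not read as particular to the constitutive sites.

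The fusions were also set against the proteins they derive from. TAZ-CAMTA1 was higher than TAZ4SA at 16271 sites (34.5%), against 26.7% of all sites in both lists, and lower at 7264 (15.4%), against 21.8%. Against CAMTA1 it was higher at 3186 sites (6.75%), against 16.7%, and lower at 4722 (10%), against 14.0%. TAZ-CAMTA1 lay within 2-fold of CAMTA1 at 83.2% of the sites, against 69.3% of all sites, and of TAZ4SA at 50.1%, against 51.4%. YAP-TFE3 was higher than YAP5SA at 8341 sites (17.7%), against 20.1%, and lower at 6867 (14.5%), against 20.8%. Against TFE3 it was higher at 4642 (9.83%), against 15.6%, and lower at 2573 (5.45%), against 9.34%. YAP-TFE3 lay within 2-fold of TFE3 at 84.7%, against 75.1%, and of YAP5SA at 67.8%, against 59.2%. The fusions differed from each other by more than 2-fold at 3320 sites higher in TAZ-CAMTA1 (7.03%), against 16.1%, and 3512 higher in YAP-TFE3 (7.44%), against 13.9%. With scaling each fusion lay within 2-fold of its C-terminal partner more often than of the TAZ or YAP mutant, at the constitutive sites and over all sites. This was not particular to the partner, since the fusions lay within 2-fold of each other at 85.5% of the constitutive sites. By rho TAZ-CAMTA1 was nearer to TFE3 (0.911) than to CAMTA1 (0.875), and YAP-TFE3 was at 0.901 with TFE3 and 0.889 with CAMTA1. Each fusion was not compared by fold with the partner of the other. Without scaling this held for TAZ-CAMTA1, at 82.7% for CAMTA1 and 17.5% for TAZ4SA, and turned for YAP-TFE3, at 30.9% for TFE3 and 51.6% for YAP5SA.

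Without scaling these splits moved as well. TAZ-CAMTA1 was then higher than TAZ4SA at 79.6% of the sites and lower at 2.86%. With the median of the constitutive sites as the centre, these shares were 27.3 and 22.5%. Without scaling TAZ-CAMTA1 was higher than CAMTA1 at 10.6% and lower at 6.77%, the reverse of the order with scaling. YAP-TFE3 was higher than YAP5SA at 41.9% and lower at 6.49%, and higher than TFE3 at 68.3% and lower at 0.741%. Taking the area per covered base in place of the summed area, with scaling, gave smaller shares in each of the 11 comparisons, such as 18.95% higher and 9.54% lower for TAZ-CAMTA1 against TAZ4SA and 3.30 and 4.49% against CAMTA1. For YAP-TFE3 against TFE3 the shares were then 4.39 and 3.92%, an almost even split.

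The 7 scaled areas of a site spanned a median of 1.89 on the log2 scale, with quartiles of 1.12 and 2.86. The span was under 1, that is under 2-fold, at 9730 sites (20.6%) and over 8-fold at 10475 (22.2%). To see which lists stood apart together, the sites were counted at which both lists of a pair lay above, or both below, the 5 others. TAZ4SA with YAP5SA had the largest number of the 21 pairs in both directions, above at 7314 sites (15.5%) and below at 6833 (14.5%). The next were EV with TAZ4SA, above at 4218 (8.93%) and below at 6113 (12.9%). TAZ-CAMTA1 with YAP-TFE3 lay above at 2792 (5.91%) and below at 3779 (8.004%). With a gap of more than 2-fold to the nearest other list, TAZ4SA and YAP5SA were above at 1321 sites and below at 1164, and the fusions above at 47 and below at 70. The pairs that stood apart depended on the scaling. Without it, TAZ-CAMTA1 with YAP-TFE3 lay above the others at 45.2% of the sites and EV with TAZ4SA below at 38.6%, while TAZ4SA with YAP5SA lay above at 1.67% and below at 16.1%.

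Sites in all 7 lists of 2000 bp or more, of which there were 13161, had another pattern of scaled area. There EV with TAZ4SA lay above the other lists at 36.1% of the sites, and TAZ-CAMTA1 with YAP-TFE3 lay below at 25.5%. TAZ4SA with YAP5SA lay above at 15.1% and below at 8.38%. The median scaled log2 ratio of TAZ-CAMTA1 to EV was 0.06 at the narrower sites and -0.48 at the broad ones, and that of YAP-TFE3 to EV was 0.13 and -0.35.

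**Figure D3:**
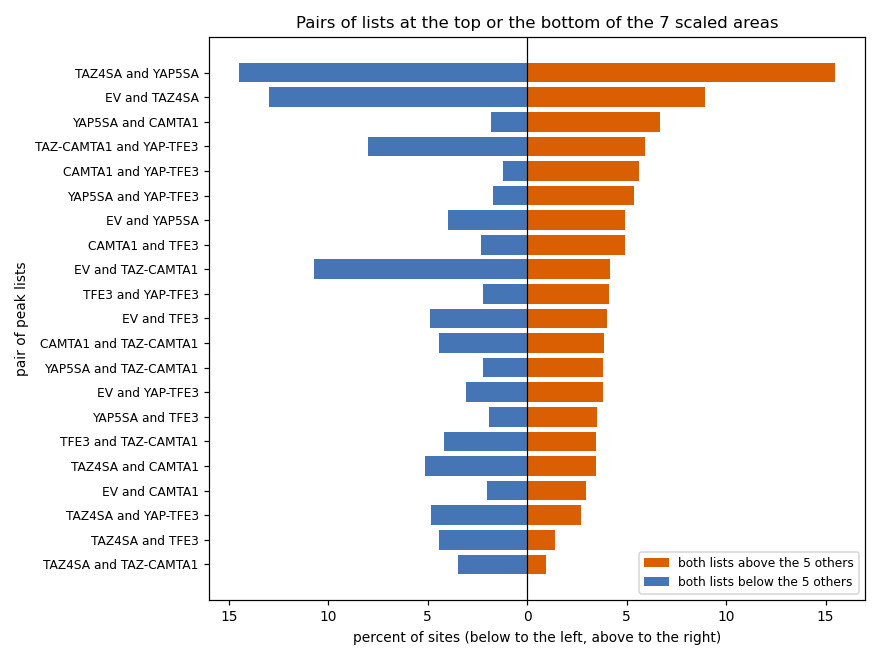
Percent of the 47211 constitutive sites at which both lists of a pair had a larger scaled area than the 5 other lists (bars to the right) or a smaller one (bars to the left), for all 21 pairs. TAZ4SA and YAP5SA reach 15.5% and 14.5%, and no other pair exceeds 9% above or 13% below.

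By itself, TAZ4SA lay below the 6 other lists in scaled area at 15210 sites (32.2%), and at 5945 (12.6%) by more than 2-fold. The corresponding numbers for a 2-fold gap below were 2560 for EV, 1165 for YAP5SA, 524 for TFE3, 423 for YAP-TFE3, 395 for TAZ-CAMTA1 and 255 for CAMTA1. TAZ4SA was also above all others at 9267 sites (19.6%) and YAP5SA at 11032 (23.4%). EV was below all others at 9491 sites (20.1%) and YAP5SA at 5179 (10.97%). In scaled area the mutants were thus the lists most often highest, and TAZ4SA and EV most often lowest. The lists most often highest turned with the measure, since the fusions were most often highest in deposited area, as given above, and by percentile. By percentile TAZ-CAMTA1 was highest at 30.2% of the sites, YAP-TFE3 at 26.1%, YAP5SA at 22.5% and TAZ4SA at 4.11%. The lists most often lowest turned in part. By percentile TAZ4SA was lowest at 46.7%, TFE3 at 22.3% and EV at 20.9%, while TFE3 was below all others in scaled area at 7.15%.

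The sites with the largest gaps show these patterns in the deposited areas. At chr2:85995391-85997081 the area was 1947 in EV, 24.2 in TAZ4SA, 1834 in YAP5SA, 3500 in CAMTA1, 2482 in TFE3, 5462 in TAZ-CAMTA1 and 4732 in YAP-TFE3. The TAZ4SA peak there was 39 bp wide, against 1208 bp or more in the other lists. At chr16:69806368-69807730 TAZ4SA had an area of 26.1 and the other lists 1629 to 4819, and at chr16:69515762-69517019 it had 22.6 and the others 1561 to 5591. The TAZ4SA peaks of all 3 sites had areas close to the lowest peak area of that list, which was just above 20, so these sites were only just in the set.

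Both mutants were high at chr1:41824791-41825692, with an area of 1001 in TAZ4SA and 2588 in YAP5SA, against 35.5 in EV, 117 in CAMTA1, 32.3 in TFE3, 113 in TAZ-CAMTA1 and 129 in YAP-TFE3. The 2 other sites of this kind were chr2:85491440-85492347, with 1859 in TAZ4SA and 2944 in YAP5SA against 28.6 to 227 elsewhere, and chr14:74261948-74263400, with 814 and 3529 against 50.7 to 183. Both mutants were low at chr17:66707619-66708890, with 25.8 in TAZ4SA and 66.1 in YAP5SA against 1463 in EV, 1846 in CAMTA1, 1274 in TFE3, 3291 in TAZ-CAMTA1 and 2591 in YAP-TFE3. The values at chr8:27701743-27702994 were 24.3 and 61.8 against 742 to 2236, and those at chr2:219732329-219733430 were 32.6 and 65.1 against 899 to 3362. At each of these sites the groups of lists did not overlap, which the rule for choosing them ensures.

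Both fusions were high at chr10:99548364-99549160, with areas of 1524 in TAZ-CAMTA1 and 1234 in YAP-TFE3, against 112 in EV, 23.4 in TAZ4SA, 132 in YAP5SA, 231 in CAMTA1 and 91.6 in TFE3. At chr9:129353381-129353699 the areas were 382 and 361 against 21.2 to 55.2, and at chr5:123217172-123219167 they were 3584 and 5499 against 119 to 729. No base of the chr9 site was covered by all 7 lists. At the chr5 site the common core was 87 bp and the summits spanned 1367 bp, so the peaks of the lists partly lay at different places. The TAZ4SA areas of 23.4 on chromosome 10 and 21.2 on chromosome 9 were close to the lowest peak area of that list, just above 20. The fusions were low at chr5:165683340-165684622, with 28.9 in TAZ-CAMTA1 and 25.6 in YAP-TFE3 against 320 in EV, 482 in TAZ4SA, 709 in YAP5SA, 216 in CAMTA1 and 137 in TFE3. At chr9:108837879-108839246 they had 69.5 and 70.5 against 161 to 2137, and at chr1:227603700-227604946 they had 141 and 184 against 401 to 4709. The fusion areas at chr5:165683340-165684622 were also close to the lowest peak area of their lists, just above 20. Which of the other 5 lists came nearest to the fusions at these sites depended on the scaling, and the sites were picked by these same areas. With scaling some were near ties. At chr10:99548364-99549160 the scaled log2 area was 6.81 in CAMTA1 and 6.80 in EV. It was 5.09 in TFE3 and 4.99 in EV at chr9:129353381-129353699. No likeness of lists is therefore read from them.

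The widest span of scaled area over the 7 lists was at chr7:32154831-32156610, where the area was 100 in EV, 3416 in TAZ4SA, 4470 in YAP5SA, 1685 in CAMTA1, 156 in TFE3, 27.8 in TAZ-CAMTA1 and 437 in YAP-TFE3. The next were chr5:61259505-61260872, from 37.7 in TAZ-CAMTA1 to 3944 in YAP5SA, and chr13:111619003-111620317, from 31.1 in TAZ-CAMTA1 to 3771 in YAP5SA. At all 3 both mutants were highest, CAMTA1 was next, and TAZ-CAMTA1 was lowest. YAP-TFE3 kept a larger area than EV at each, unlike TAZ-CAMTA1. The TAZ-CAMTA1 areas of 27.8 to 37.7 at these sites were near the lowest peak area of that list, just above 20.

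**Figure D4:**
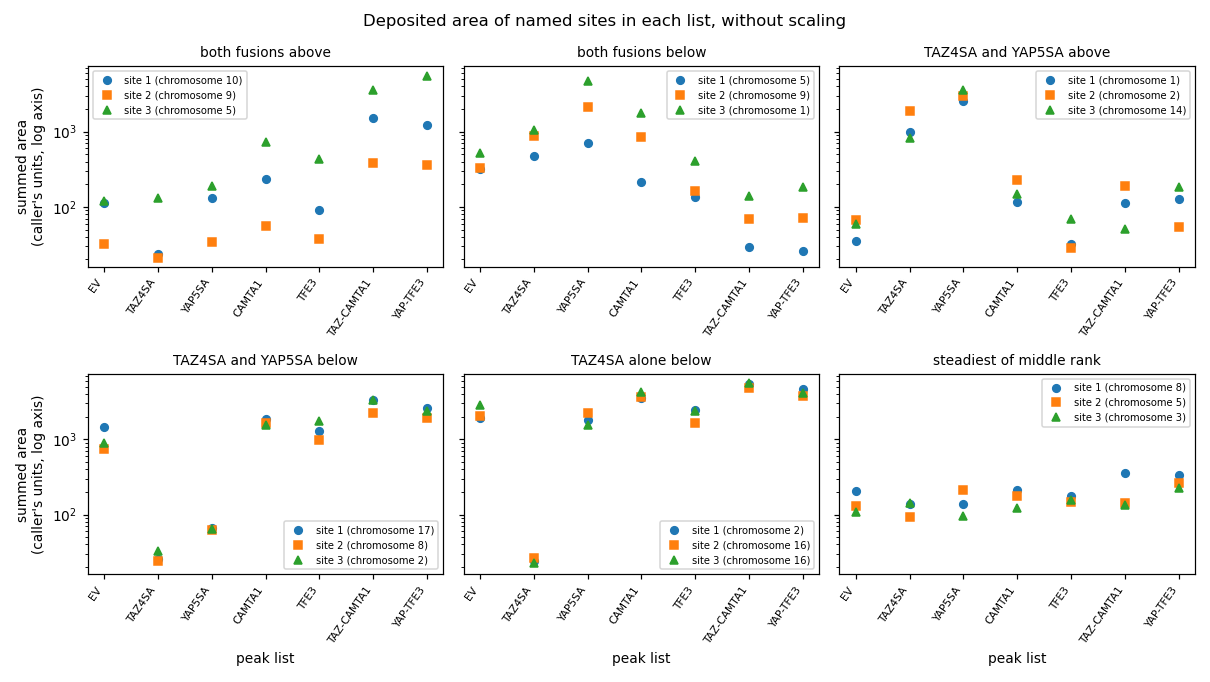
Deposited area (log axis, without scaling) of 18 named constitutive sites in each of the 7 peak lists, with 3 sites in each panel shown by their own marker. The TAZ4SA points of the sites where it lies alone below stand at 22.6 to 26.1 while the other 6 lists stand at 1561 or more, and the steadiest sites stay between 91.7 and 355 in all lists.

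The widest constitutive sites, of 1999 bp each, were chr1:224544041-224546039, with areas from 3782 in TAZ4SA to 9540 in YAP-TFE3, and chr10:35415115-35417113, with areas from 2200 in TAZ4SA to 7093 in YAP-TFE3. Just outside, at 2000 bp, were chr1:6258797-6260796, from 2457 in TAZ4SA to 7525 in TAZ-CAMTA1, and chr1:109101931-109103930, from 1274 in TAZ4SA to 6685 in YAP-TFE3. In deposited area TAZ4SA was the lowest list and a fusion the highest on both sides of the limit. With scaling this order was not kept, and TAZ4SA was the highest list at the first of these sites.

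The position of the summit was not used to choose the sites. Between the largest peaks of 2 lists in a site, the median distance of the summits was smallest for TAZ-CAMTA1 with YAP-TFE3, at 12 bp, and was 13 bp for TFE3 with TAZ-CAMTA1 and 16 bp for CAMTA1 with TFE3. It was 20 bp for EV with TAZ-CAMTA1 and 35 bp for TAZ4SA with YAP5SA, and largest for EV with TAZ4SA, at 37 bp. The 6 pairs with TAZ4SA had medians of 31 bp or more, and no other pair exceeded 30 bp. Sites in 2 to 6 lists, including both lists of the pair, had a median of 20 bp for the fusions and 46 bp for EV with TAZ4SA. The share of summits within 50 bp was 74.3% at the constitutive sites and 72.6% at sites in 2 to 6 lists for the fusions, and 56.9 and 52.6% for EV with TAZ4SA.

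Over all 7 lists, the summits of a constitutive site lay within 50 bp of each other in 11367 cases (24.1%, exact 95% interval 23.7 to 24.5%). The share was 26.2% at sites in exactly 6 lists (25.6 to 26.7%), where there are fewer summits and narrower sites. At like width above 300 bp the order was the other way. At merged widths of 750 to 1000 bp, 20.05% of the constitutive and 16.4% of the 6-list sites had all summits within 50 bp, and the median span was 143 against 232 bp. At 1500 to 2000 bp the shares were 24.7 and 9.94%, and the spans 163 and 496 bp, with 493 of the latter kind of site. Under 300 bp the shares were 46.0 and 47.3%. Wide constitutive sites thus had more closely placed summits than wide sites missing from 1 list.

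Merging can join peaks that share no base, so the bases covered by all 7 lists were counted. A common base existed in 44737 constitutive sites (94.8%, 94.6 to 94.96%). The common core had a median of 223 bp, with quartiles of 101 and 515 bp, and a median of 28.6% of the merged width. At the sites of 2000 bp or more it had a median of 1409 bp and 53.2% of the merged width. A constitutive site was thus usually a short shared core with flanks that differed between lists.

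Peaks of 1 list were often split within a site. Every list had exactly 1 peak at 13158 of the constitutive sites (27.9%), and at 34053 (72.1%) at least 1 list had more. A single peak was present at 63.5% of the sites in YAP5SA, 65.1% in EV, 67.5% in TAZ4SA, 68.5% in TFE3, 71.3% in CAMTA1, 74.6% in YAP-TFE3 and 81.2% in TAZ-CAMTA1. Successive peaks of a list in a site were never closer than 101 bp from end to start.

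The distances between successive summits were not spread evenly. Over the 120281 pairs of successive peaks they had a first mode at 255 bp, a dip at 345 bp, a second mode at 435 bp, a dip at 565 bp and a last mode at 615 bp, in bins of 10 bp smoothed over 5 bins. The steps between modes were 180 bp each. The first mode lay at 255 or 265 bp and the second between 425 and 445 bp in each of the 7 lists. The first dip fell to between 58.9% of the height of the second mode in TAZ-CAMTA1 and 84.9% in TAZ4SA. A further mode, between 605 and 635 bp, was found in the 6 lists other than TAZ4SA. At the sites of 2000 bp or more the modes lay at 245, 435 and 625 bp. As background, DNA wound on neighbouring nucleosomes repeats with a period of this order, and whether nucleosomes lie between these summits was not tested.

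**Figure D5:**
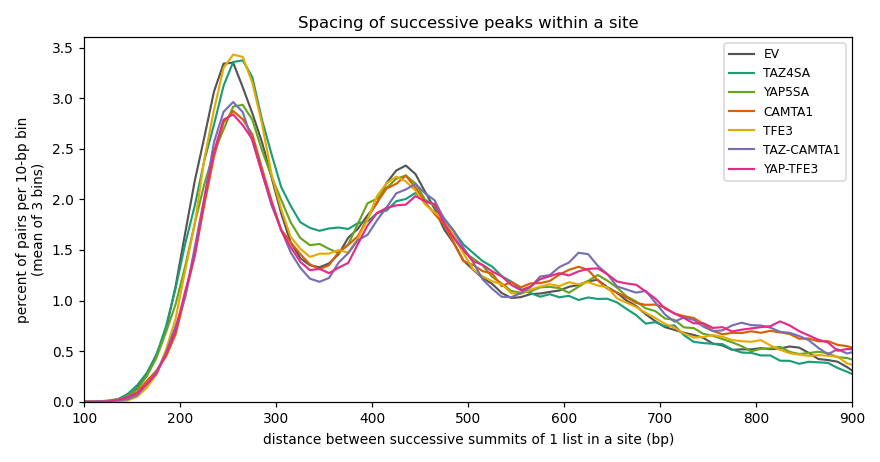
Distribution of the distance in bp between successive summits of the same list within a constitutive site, as the percent of pairs per 10-bp bin (mean of 3 bins), with 1 line per peak list. All 7 lines rise to a mode near 255 bp and another near 435 bp, and the dip between them is shallowest for TAZ4SA.

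Among chromosomes 1 to 22 and X the constitutive sites were unevenly placed. They were densest on chromosome 20, at 29.6 per Mb of the extent covered by peaks, followed by chromosome 19 at 27.1 and chromosomes 17 and 5 at 22.1 and 22 per Mb. They were sparsest on chromosome X, at 7.69, and chromosome 4, at 8.28. As a share of all merged sites of a chromosome they were highest on chromosome 19, at 16.4%, and lowest on chromosome 13, at 8.50%, and chromosome 5, at 9.98%. Chromosome 5 thus ranked high by number of constitutive sites and low by their share, since it held 220 merged sites of any kind per Mb. The median distance to the nearest other constitutive site was 8333 bp, and the median distance to the nearest site of any kind was 184 bp.

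Scaled areas also varied between chromosomes. The median log2 ratio of TAZ4SA to EV at the constitutive sites was -0.42 on chromosome 22, -0.36 on chromosome 17 and -0.33 on chromosome 19, and it was 0.22 on chromosome 2 and 0.18 on chromosome 9. In the TAZ-CAMTA1 list the medians ran from -0.36 on chromosome 13 to 0.25 on chromosome 22, and in the TFE3 list from -0.24 on chromosome 13 to 0.27 on chromosome 18. On chromosome 22 TAZ4SA lay below EV while every other list lay above it, from 0.05 in YAP5SA to 0.38 in YAP-TFE3. On chromosome 13 all 6 medians lay below 0, the smallest difference being that of YAP5SA at -0.04. All these signs are relative to the median over all sites in both lists, which was -0.59 for TAZ4SA and 1.36 for TAZ-CAMTA1. Medians by chromosome were not computed without scaling.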

How the data were processed

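Peaks of ATAC-seq on SW872 cells were analysed from 7 lists, 1 per vector, that the authors deposited. The study's methods name NGmerge for adapter trimming, BWA-MEM for alignment and Genrich, set for ATAC-seq, for peaks, leaving out PCR duplicates and hg19 artefact regions. The submitters' processing notes instead list Bowtie 0.12.2 and mm8. The chromosome names and extents are those of hg19, and chromosome 1 peaks reach base 249240671. Calling is described per replicate, and how the deposited lists combine replicates is not stated. Coordinates were not converted to the hg38 reference held here.

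The signal of a peak is an area that the authors deposited, summed by the caller over its statistic along the peak, and the deposited −log10 p is that of its summit. Neither is scaled between lists. Peaks were merged with Python 3.11.15, pandas 2.3.3 and numpy 2.4.6, and shares received exact binomial 95% intervals (scipy 1.17.1). The merging, common cores and folds were tested on simulated data. There each site in all lists had 1 peak per list with the same ends, so partial overlap and split peaks were not covered. Touching peaks without a shared base were kept apart. No test between vectors is possible with 1 list each. Smoothing of summit spacings used 5 bins of 10 bp. Gene and sequence results that were planned need an hg19 reference and were not run.

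The set of sites was chosen with earlier results of these data known. Sites were named by fixed rules as the 5 with the highest lowest-of-7 percentile, the 3 with the lowest highest-of-7 percentile, the 3 steadiest of middle rank, the 3 with the largest gaps of each kind described, the 3 with the widest span, those nearest the width limit and the narrowest.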

Additional observations from a re-analysis of the deposited data

How the results depend on the processing

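The number of constitutive sites was 23240 with a merged width under 1000 bp and 13158 with exactly 1 peak of each list, in place of 47211. It stayed within 1.5 times under the other alternatives, from 40897 when peaks under a −log10 p of 4 were left out to 63121 without the TAZ4SA list. Shares of sites past 2-fold moved by more than 1.5 times only without scaling or with the area per covered base. The cause was not tested beyond the construction of these alternatives.

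Without scaling, the shares higher and lower than EV were 13.4 and 38.8% for TAZ4SA, 60.01 and 1.35% for CAMTA1, 71.3 and 1.00% for TAZ-CAMTA1 and 71.5 and 1.498% for YAP-TFE3, and 7.57% were lower for YAP5SA. They were 79.6 and 2.86% for TAZ-CAMTA1 against TAZ4SA, 41.9 and 6.49% for YAP-TFE3 against YAP5SA, and 68.3 and 0.741% for YAP-TFE3 against TFE3, and 10.6% were higher for TAZ-CAMTA1 against CAMTA1. With the area per covered base, the shares against EV were 13.3 and 13.8% for TAZ4SA, 15.9 and 6.90% for YAP5SA, 11.7 and 4.26% for CAMTA1, 9.15 and 4.70% for TFE3, and 11.4 and 4.73% for YAP-TFE3, and 9.004% were higher for TAZ-CAMTA1. They were 18.95 and 9.54% for TAZ-CAMTA1 against TAZ4SA, 3.30 and 4.49% against CAMTA1, 3.12 and 3.52% against YAP-TFE3, 9.01 and 8.54% for YAP-TFE3 against YAP5SA, and 4.39% higher for YAP-TFE3 against TFE3.

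Peaks of at least 4 in summit −log10 p, equal numbers of peaks by −log10 p or by area, autosomes only and a base common to all lists moved none of the shares past 2-fold or of all summits within 50 bp by more than 1.5 times. For the shares of each list's peaks and the correlations between lists, 94 alternative values lay outside the 95% interval of the reported value and 46 within it. This interval was of counting error for the shares and by Fisher's transformation of rho for the correlations. The latter treats sites as independent replicates, which they are not. Also added after seeing the data, the shares within 2-fold and the counts of pairs of lists above or below the others were computed without scaling, and 42 of them moved by more than 1.5 times while 11 did not. Merging of touching peaks, added after seeing the data, gave 47207 sites. No paired analysis was possible because each vector has 1 pooled list, and for the same reason no library could be left out. The unknown depth of the lists limits every comparison of width and area.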
